A study of Mus musculus with 46 samples.

Results

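The genes described here build and guard the protein-folding compartment of the cell, the endoplasmic reticulum (ER), in tumors of 8 genetically engineered mouse (GEM) mammary cancer models and in normal mammary gland. They were chosen by name as a set of 40 genes. For each gene the probe set with the highest mean over the 46 arrays was used, so that a gene has 1 value per array. A probe set assigned to 1 gene was found for 39 of the 40, out of 10470 genes in the deposited values, and Sec61g had none there. Of these, 38 passed a filter on low values (a log2 value over 4 in at least 3 arrays) and were tested among 9329 genes, while Ern1 was not.

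Secreted and membrane proteins enter the ER through the signal recognition particle and the Sec61 channel, lose their signal peptide, receive sugar chains and are folded by chaperones and disulfide isomerases. When unfolded protein builds up, the sensors IRE1 (gene Ern1), PERK (Eif2ak3) and ATF6 (Atf6) start the unfolded protein response. IRE1 splices the Xbp1 mRNA, ATF6 is released as a transcription factor, and both raise chaperone and degradation genes through promoter elements, whereas PERK slows translation and favors ATF4, which drives amino acid and stress genes. The secretory epithelium of a pregnant gland is known for a large ER, since it makes milk protein.

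Total RNA of 41 primary tumors and 5 normal glands from female mice was profiled, with each tumor or gland on an array of its own. The study compared the models, normal gland, and tumors of a basal and a luminal type by their microRNA. It used the mRNA arrays described here to look for likely microRNA targets. Here the mRNA values are compared between models and normal gland, among models, and between the basal and luminal types. All values below are GC-RMA values on the log2 scale, so a difference of 1 is a doubling, and a gene was called at a limma adjusted p under 0.05 over the 9329 genes. No record of separate batches was used, and a ± is the SD over arrays.

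The basal-type models were C3(1)/Tag (labelled C3TAg, n = 5, strain FVB), which expresses simian virus T antigen from a rat prostate gene promoter, the p53-/- transplant (n = 7, Balb/C), grown from mammary tissue of p53 fl/fl;MMTV-cre mice, and BRCA1-/-p53+/- (n = 5, 129B6/FVB), in which MMTV-cre deletes BRCA1 in mice that lack 1 copy of p53. The luminal-type models were MMTV-H-Ras (n = 5), MMTV-Her2/neu (n = 5, labelled MMTV-H2N), MMTV-c-Myc (n = 4), MMTV-PymT (n = 6, the polyoma middle T antigen) and MMTV-Wnt1 (n = 4, labelled MMTV-Wnt), all on FVB. Normal gland (n = 5) came from pregnant FVB mice. The MMTV promoter is active in mammary epithelium, rises with lactation and is also active in salivary gland and lymphoid cells, which limits these models. Strain and model cannot be told apart for p53-/- transplant and BRCA1-/-p53+/-.

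Normal gland stood apart in its cell makeup. All 8 tested adipocyte markers and 15 of 16 milk and secretory genes were lower in tumors, and all 15 tested proliferation genes were higher. In bulk tissue fewer cells of a type and less RNA per cell cannot be told apart. The mean level of the milk genes was 12.90 to 14.28 in normal glands, and among tumors it was highest in MMTV-Her2/neu (9.90 ± 0.36) and MMTV-PymT (9.37 ± 1.02). Salivary secretory genes (11 tested) averaged 6.93 to 11.97 in MMTV-H-Ras, 13.01 in MMTV-PymT 2, 8.77 in MMTV-Wnt1 2, 7.60 in BRCA1-/-p53+/- 5 and 7.03 in MMTV-c-Myc 2, against 3.59 to 5.05 in normal glands. Among the tumors that stood apart in markers, BRCA1-/-p53+/- 2 had adipocyte genes at 12.77, close to normal gland (12.57 ± 0.33), and BRCA1-/-p53+/- 3 (7.62), BRCA1-/-p53+/- 4 (5.52) and MMTV-Wnt1 3 (7.76) had mammary epithelial genes below those of every other tumor (8.73 or more) and of normal gland (10.99 ± 0.45). Results that change without these 4 tumors are given with that change.

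Promoter sequence is shown first, because an ER stress element is how the response raises many of these genes. RefSeq promoters of assembly GRCm38.p6, from 250 bases before to 50 after the annotated start, were matched for 34 of the 40 genes, and both strands were searched. The ER stress element (ERSE) was searched as CCAAT and CCACG separated by 9 bases of any kind, where NF-Y binds the first part and ATF6 or XBP1 the last. It was found in 7 members and in 0.119% of 32851 promoters. The related ERSE-II, searched as ATTGG and CCACG separated by 1 base of any kind, was found in 2 members and in 0.0365% of promoters. The C/EBP-ATF response element (CARE), TGATGNAAN, to which ATF4 binds, was found in 4 members and in 3.95% of promoters. The XBP1 site (UPRE), searched as TGACGTGG, was found in 0 members and in 0.676% of promoters. Only exact matches to these letters were counted, so near matches, such as those in the Hspa5 promoter below, are not marked. ERSE and ERSE-II share the letters CCACG, which on the other strand end the UPRE, and no base belonged to matches of different elements. Each line runs 5′ to 3′ on the strand of the gene, with the matched element in capitals on whichever strand it was read. The whole Hspa5 promoter and then the sites of the other ERSE genes are shown.
Hspa5 promoter, ERSE, chr2:34771840-34772139, plus strand: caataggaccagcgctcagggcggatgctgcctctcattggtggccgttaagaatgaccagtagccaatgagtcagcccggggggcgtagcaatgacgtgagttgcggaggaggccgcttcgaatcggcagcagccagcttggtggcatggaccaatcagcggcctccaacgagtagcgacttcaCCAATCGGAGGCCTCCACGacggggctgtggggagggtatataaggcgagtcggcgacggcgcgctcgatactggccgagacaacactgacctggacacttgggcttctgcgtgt
Calr, ERSE, chr8:84847055-84847113, minus strand: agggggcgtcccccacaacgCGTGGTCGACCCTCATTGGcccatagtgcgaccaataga
Canx, ERSE, chr11:50325780-50325838, minus strand: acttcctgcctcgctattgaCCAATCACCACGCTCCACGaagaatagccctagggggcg
Creld2, ERSE, chr15:88819500-88819558, plus strand: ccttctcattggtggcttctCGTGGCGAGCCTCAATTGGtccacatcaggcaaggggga
Dnajc3, ERSE, chr14:118937807-118937865, plus strand: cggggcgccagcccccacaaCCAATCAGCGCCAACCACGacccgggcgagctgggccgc
Hsp90b1, ERSE, chr10:86705618-86705676, minus strand: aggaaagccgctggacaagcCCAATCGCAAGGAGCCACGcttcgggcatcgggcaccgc
Hsp90b1, ERSE, chr10:86705513-86705571, minus strand: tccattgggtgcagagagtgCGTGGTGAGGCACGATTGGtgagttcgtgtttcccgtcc
Pdia6, ERSE, chr12:17266471-17266529, plus strand: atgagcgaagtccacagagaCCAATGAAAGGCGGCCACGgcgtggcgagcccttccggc
The CARE sites lie at ATF4 branch genes and Herpud1, and the ERSE-II sites at Herpud1 and the co-chaperone gene Dnajb11.
Asns, CARE, chr6:7693204-7693252, minus strand: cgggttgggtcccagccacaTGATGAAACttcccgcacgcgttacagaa
Atf3, CARE, chr1:191183416-191183464, minus strand: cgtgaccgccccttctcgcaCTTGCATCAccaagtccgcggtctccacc
Herpud1, CARE, chr8:94386296-94386344, plus strand: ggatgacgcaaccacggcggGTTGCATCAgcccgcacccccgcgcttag
Trib3, CARE, chr2:152344019-152344067, minus strand: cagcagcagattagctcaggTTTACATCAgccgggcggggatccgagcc
Dnajb11, ERSE-II, chr16:22857832-22857882, plus strand: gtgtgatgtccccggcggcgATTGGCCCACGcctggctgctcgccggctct
Herpud1, ERSE-II, chr8:94386357-94386407, plus strand: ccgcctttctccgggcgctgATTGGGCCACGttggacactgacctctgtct
These 14 sites lay 7 to 212 bases from the start, and those of Trib3 and Dnajb11 lay after it. A match is a description of letters, not a test of binding.

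Some chaperone and degradation genes were higher in tumors than in normal gland. Hspa5, Creld2, Calr, Pdia6, Herpud1 and Edem1 were higher and Dnajb9 and Srp14 were lower. These are 6 of 38 members higher (24.2% of all genes were) and 2 lower (17.1% of all genes), so the share of called members did not exceed that of called genes in general. The members' median difference was 0.32, against 0.20 for all genes. That median of all genes became 0.11 after quantile normalization and -0.0049 with arrays centred on the median, and the share of higher genes among the called changed from 58.6% to 52.3% and 45.5%. The members' counts were 5 to 7 higher and 2 or 3 lower over all settings that kept every array, and leaving out normal gland 4 or normal gland 5 gave 1 lower. No member had all tumors beyond all normal glands (0 above and 0 below, against 0.461% and 1.23% of all genes).

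Hspa5 encodes BiP, the main ER chaperone, which also holds the sensors inactive. Its values in the 5 normal glands were 12.69, 12.53, 12.55, 13.41 and 13.34, and those in tumors ran from 12.87 over a median of 13.73 to 14.42. The groups overlapped, but 30 of 41 tumors lay above the highest gland and 0 below the lowest. The mean of the 8 models was 0.71 higher (SE 0.17, 1.63-fold, limma adjusted p = 0.000857). Hspa5 was called in every model except MMTV-c-Myc and MMTV-Wnt1, from 0.61 in MMTV-H-Ras to 1.02 in MMTV-Her2/neu. A second probe set of Hspa5 was not called (0.20).

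Hsp90b1 encodes the ER form of the chaperone Hsp90. Normal glands read 12.12, 12.73, 12.31, 12.89 and 12.66, and tumors 11.83 to 13.75 with a median of 13.01. The difference of 0.39 (SE 0.16) missed the threshold (limma adjusted p = 0.0534), and the lowest values were BRCA1-/-p53+/- 1 and 2 (11.83 and 11.93). It was called when any of 8 arrays was left out, normal gland 4 among them, and after quantile normalization (0.41, adjusted p = 0.0249). Another probe set of the gene was called (0.89).

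Creld2 encodes an ER stress-induced factor with isomerase activity. It read 8.04, 8.73, 8.26, 9.44 and 8.79 in normal glands, and from 8.33 over a median of 10.18 to 11.44 in tumors. Its difference of 1.36 (SE 0.30, 2.57-fold, limma adjusted p = 0.000347) was the largest among the chaperones, and 35 of 41 tumors lay above every gland. The models did not differ detectably for Creld2 (range of model means 0.70, adjusted p = 0.428), although MMTV-c-Myc alone spanned 8.72 to 11.44. Creld2 was called in 6 models, and in the other models it read 9.68 ± 0.26 (MMTV-H-Ras) and 9.74 ± 0.66 (MMTV-Wnt1).

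Dnajb9 encodes a co-chaperone of BiP and is a classical target of XBP1. It was named after its values were seen, as the largest decrease. Normal glands read 11.41, 11.73, 11.37, 11.19 and 11.78, and tumors 8.52 to 11.95 with a median of 10.28. Of 41 tumors 34 lay below every gland and 2 above, and the difference was -1.28 (SE 0.22, limma adjusted p = 7.18e-06). The models split here. MMTV-c-Myc (8.87, 9.09, 8.53 and 8.52) was lowest at -2.74 and 5 other models were lower as well, whereas MMTV-Her2/neu (-0.15) and MMTV-PymT (-0.23) were not called, the models whose milk gene level was also the highest among tumors. The part of secretory cells in this was not tested.

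**Figure D1:**
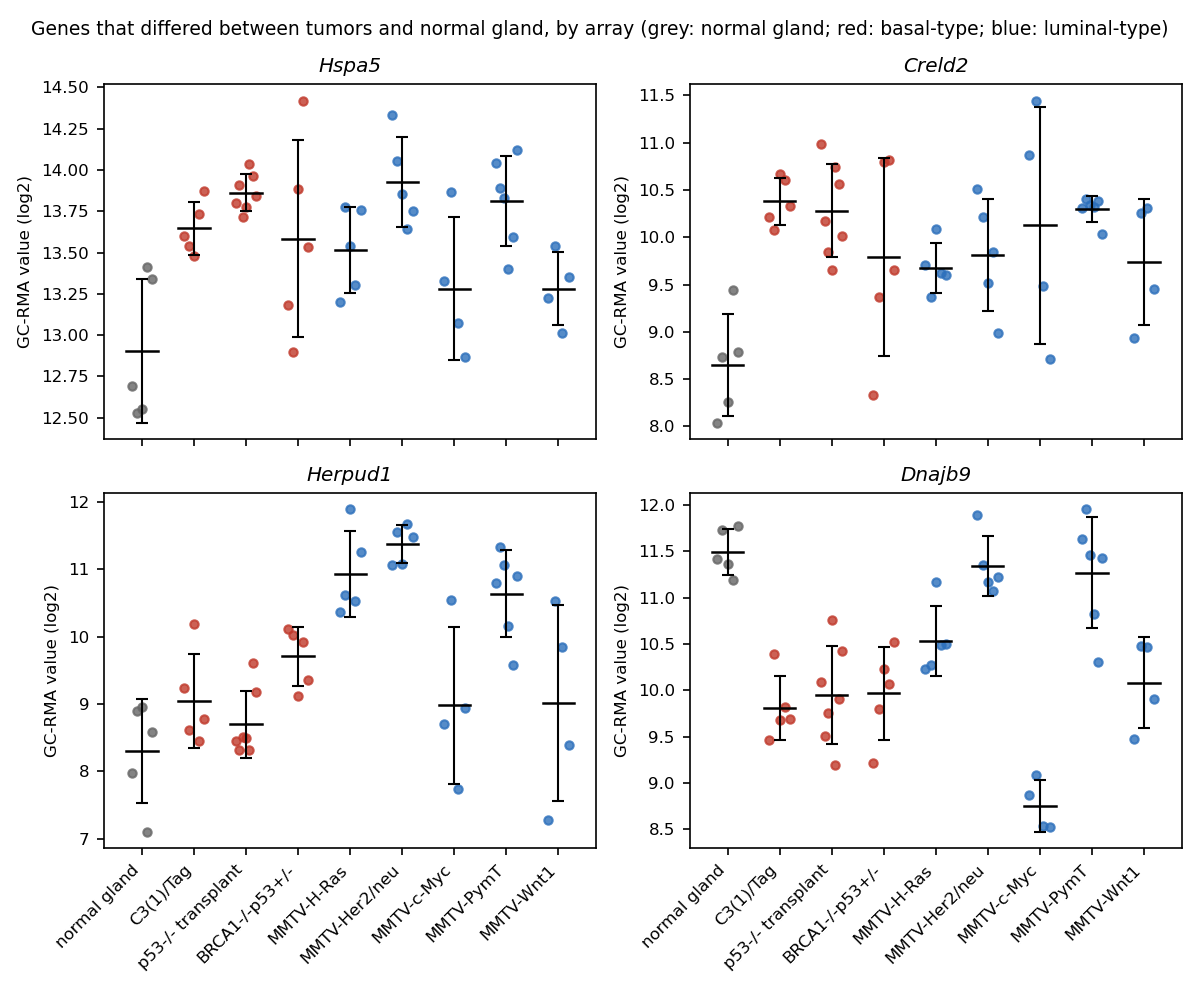
Log2 GC-RMA value (vertical axis) of Hspa5, Creld2, Herpud1 and Dnajb9 by group along the horizontal axis, where a point is an array (46 in all) and black bars give the mean and SD. Hspa5, Creld2 and Herpud1 lay above normal gland (means 12.91, 8.65 and 8.31) in most tumors, and the Dnajb9 means of all 8 models lay below it (11.50), with those of MMTV-Her2/neu (11.34) and MMTV-PymT (11.27) nearest and not called.

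Of the other chaperones, Manf (a secreted ER stress factor), Hyou1 (a nucleotide exchange factor of BiP), Sdf2l1 (a partner of BiP and its co-chaperones), Dnajb11 and Dnajc3 (J proteins that hand substrates to BiP) were not called, with differences from -0.01 to 0.48. Single models were called for Manf in 3 cases, up to 1.31 in MMTV-PymT, and Hyou1 was called in BRCA1-/-p53+/- (1.04). Dnajc3 was called only in MMTV-Wnt1 (-1.59), where its arrays read 7.42, 9.87, 8.64 and 9.14 against 9.34 to 11.57 in normal gland.

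Among lectin chaperones and disulfide isomerases, 2 of 6 were higher and 0 lower. Calr encodes calreticulin, a lectin chaperone that binds calcium and newly made glycoproteins. It was 0.58 higher (SE 0.16, adjusted p = 0.0032), and 30 of 41 tumors lay above the glands (12.58 to 13.40). Pdia6, an isomerase that ends IRE1 signaling, read 10.48, 10.34, 10.43, 10.89 and 10.62 in normal glands and 9.17 to 12.41 in tumors with a median of 11.34. It was 0.64 higher (SE 0.23, 1.55-fold, limma adjusted p = 0.0253), and lost the call with arrays centred on the median (0.43, adjusted p = 0.113), with the median of its probe sets (0.42, adjusted p = 0.0751), or without normal gland 1, 2 or 3 (0.58 to 0.62). That median takes in a Pdia6 probe set near the lower limit of GC-RMA values (mean 2.45). MMTV-H-Ras tumors (9.17, 9.67, 10.54, 9.52 and 10.20) held 4 of the 6 tumors below the glands. Canx (calnexin), Pdia3, Pdia4 and P4hb were not called, with differences of 0.16 to 0.55. Of the other probe sets of Canx, that at 0.84 was called and that at -0.56 was not, so they differed in sign.

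All 3 genes of ER-associated degradation had positive differences, and 2 were called. Herpud1, which gathers the degradation complex, was the member with the largest increase. Normal glands read 7.98, 8.90, 8.96, 7.11 and 8.59, and tumors 7.28 to 11.89 with a median of 9.92. The difference was 1.49 (SE 0.35, 2.82-fold, limma adjusted p = 0.000748), 28 of 41 tumors lay above every gland, and both probe sets were called. It was largest in MMTV-Her2/neu (3.07), MMTV-H-Ras (2.63) and MMTV-PymT (2.33). Edem1, a lectin that marks misfolded glycoproteins for removal, was 0.69 higher (SE 0.21, adjusted p = 0.00776), but its second probe set was called lower (-0.93), so no direction is settled for this gene. Sel1l, the scaffold of the Hrd1 ubiquitin ligase, missed the threshold (0.96, SE 0.41, adjusted p = 0.0555), and of its 3 other probe sets 1 was called higher (1.31).

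Of the 10 tested genes of targeting, translocation and signal peptide removal, 0 were higher and 1 lower, and their median difference was -0.18. Srp14, an RNA-binding subunit of the signal recognition particle, read 12.41, 12.36, 12.26, 12.97 and 12.78 in normal glands. Tumors read 11.49 to 12.98 with a median of 12.15, and 26 of 41 lay below every gland. The difference was -0.43 (SE 0.15, limma adjusted p = 0.0217), and the call was lost with the median of its 4 probe sets (-0.13, adjusted p = 0.525) and without normal gland 4 or normal gland 5. Srp9, Sec61a1, Sec61b, Ssr1, Ssr2, Ssr3, Spcs1, Spcs2 and Sec11c, which form the particle, the channel, the translocon-associated complex and the signal peptidase, ran from -0.65 (Sec11c) to 0.50 (Spcs1). Genes of the oligosaccharyltransferase, the enzyme that adds sugar chains, were not called either (Ddost 0.33, Rpn1 0.36 and Rpn2 -0.02), but the other 4 probe sets of Rpn1 were called higher (0.48 to 0.70). Of the other 2 probe sets of Ssr1, 1 was called lower (-0.85).

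Of the sensors, Atf6 was 0.65 lower (SE 0.31, adjusted p = 0.0912) and Eif2ak3 was 0.36 higher (SE 0.21, adjusted p = 0.175), neither called. Ern1 lay near the lower limit of GC-RMA values in every group. Its mean was 2.20 in tumors, 1 gland read 4.37 and the other glands 2.17 to 2.29, so no level of IRE1 mRNA could be compared. The array measures total Xbp1 mRNA and does not tell its spliced form apart.

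In the ATF4 branch 0 of 5 members were called. Atf4, whose protein is raised mainly by translation, read 11.28, 10.96, 10.81, 11.63 and 11.64 in normal glands and 10.76 to 12.66 in tumors with a median of 11.45 (difference 0.25, SE 0.20, limma adjusted p = 0.34). Ddit3 encodes CHOP, a transcription factor of prolonged ER stress. Its glands read 5.59, 6.14, 6.67, 6.90 and 7.05, and tumors 4.47 to 9.38 with a median of 7.67. The difference of 0.99 (SE 0.41, adjusted p = 0.0515) lay at the edge of the threshold, with 28 of 41 tumors above every gland, and it was called when any of 11 arrays was left out. Ddit3 was called in C3(1)/Tag (1.55), BRCA1-/-p53+/- (1.78) and MMTV-PymT (1.53). The BRCA1-/-p53+/- call of Ddit3 was lost without the 4 tumors that stood apart. Atf3, a stress transcription factor, differed by 1.00 (adjusted p = 0.0618), Trib3, a pseudokinase that dampens ATF4 and CHOP, by 0.44, and Asns, the asparagine synthetase gene, by -0.32.

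Read by promoter element, 5 of the 9 members with an ERSE or ERSE-II were higher in tumors and 0 were lower (Herpud1, Creld2, Hspa5, Pdia6 and Calr), where 24.2% of all genes were higher and 17.1% lower. Their median difference was 0.58. Of the 23 tested members whose promoter held neither, 1 was higher (Edem1) and 2 lower, with a median of 0.31, and of the 6 without a promoter entry 0 were called. Hsp90b1, with 2 such elements, Canx, Dnajb11 and Dnajc3 were not called. This is a description with no test. Other probe sets of Hspa5, Calr and Pdia6 were not called, that of Pdia6 lying near the lower limit (mean 2.45). Another probe set of Hsp90b1 (0.89) and 1 of Canx (0.84) were called higher. Among members with neither element, the second probe set of Edem1 was called lower (-0.93), and those of Srp14 were not called. The other probe sets of Rpn1 and 1 of Sel1l (1.31) were called higher, and 1 of Ssr1 lower (-0.85). These counts thus depend on the probe set used. Dnajb9, the strongest decrease, held none of the 4 elements.

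**Figure D2:**
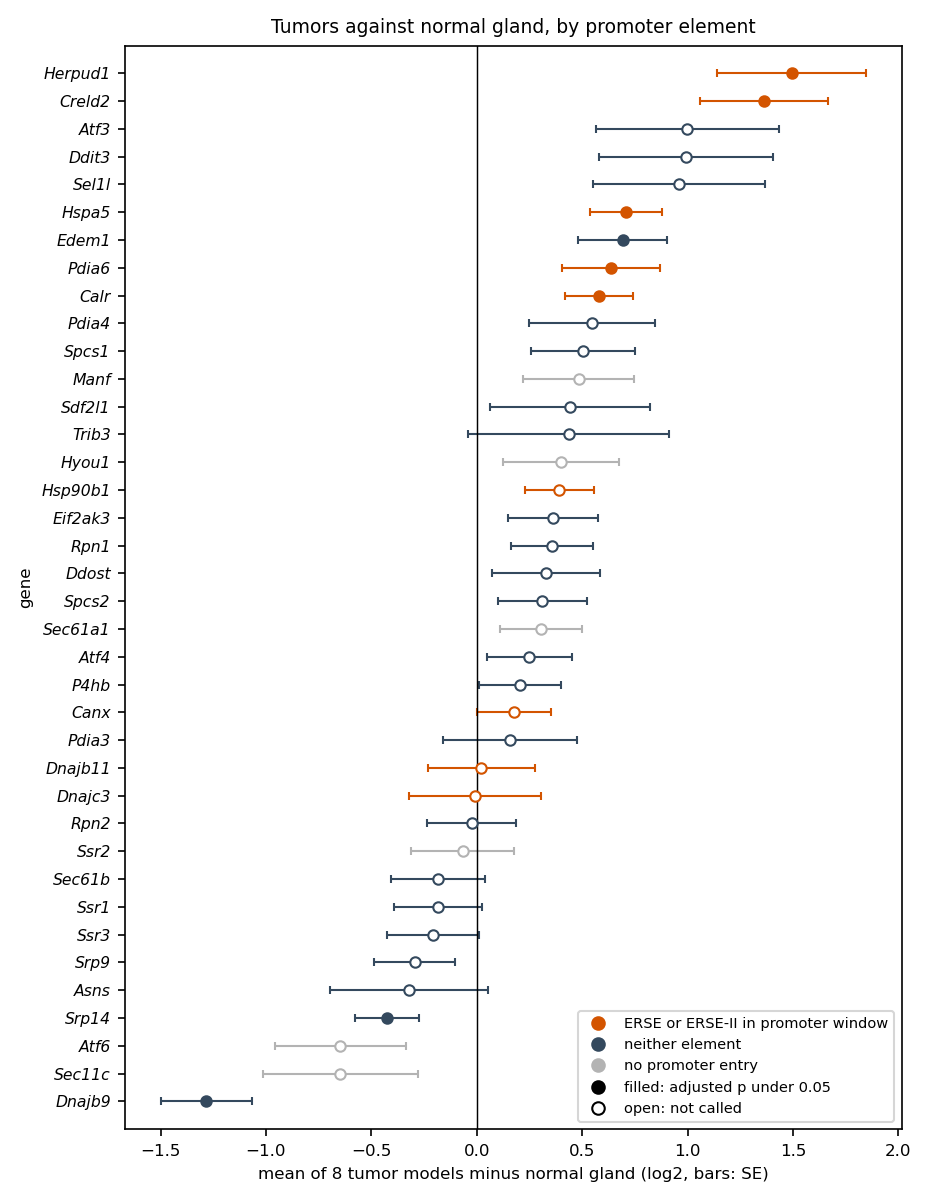
Difference between the mean of the 8 tumor models and normal gland (horizontal axis, log2) for the 38 tested members (vertical axis), with SE bars, filled points for called genes and color for the promoter element. Of the members with ERSE or ERSE-II, 5 lie above 0 with filled points (0.58 to 1.49), and the lowest filled point is Dnajb9 at -1.28.

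Of other genes of the pathway, listed separately, 20 of 22 regulators and degradation genes were tested, and 2 were higher and 6 lower in tumors, beside 24.2% and 17.1% of all genes as in the lists that follow. The largest were Creb3l1 (-1.83) and Creb3l2 (1.63), ER-anchored transcription factors related to ATF6. Among 37 tested of 40 other folding, translocation and glycosylation genes 5 were higher and 4 lower, led by the ER prolyl isomerase genes Fkbp11 (-2.85) and Fkbp7 (-1.72). Among 29 tested of 35 ATF4 targets and eIF2alpha kinases 6 were higher and 5 lower, led by Mthfd2 (3.19), an enzyme of mitochondrial folate metabolism, and Ddit4 (2.48), an inhibitor of mTORC1. Xbp1, the partner of these genes in the response, was lower in tumors (-0.94, SE 0.26, adjusted p = 0.00346) and averaged 13.89 ± 0.35 in normal gland. Its values divided the models, from 11.39 ± 0.27 in C3(1)/Tag and 12.09 ± 0.71 in MMTV-Wnt1 to 13.93 ± 0.28 in MMTV-Her2/neu and 14.18 ± 0.21 in MMTV-PymT.

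Each model was next set against the same 5 glands, so the 8 comparisons share their controls. MMTV-PymT had the most members higher, 15 of 38 (39.5%) against 20.3% of all genes, and 1 lower (12.3% of all genes). MMTV-Her2/neu followed with 11 higher and 0 lower (22.3% and 12.8% of all genes). The 11 became 7 after quantile normalization and 6 with arrays centred on the median. They became 6 without MMTV-Her2/neu 1 and 7 without MMTV-Her2/neu 2, normal gland 1 or normal gland 3. C3(1)/Tag had 7 higher and 4 lower (29.4% and 18.5% of all genes), and 1 higher and 10 lower with centred arrays. In the p53-/- transplant 8 were higher and 1 lower (26.1% and 16.6%), with 5 and 4 for centred arrays. MMTV-H-Ras had 5 higher and 1 lower (14% and 14%), and the 5 became 10 without normal gland 4, 3 without MMTV-H-Ras 3 and 2 without normal gland 3. BRCA1-/-p53+/- had 6 and 2 (16% and 16.2% of all genes). The 6 became 0 without the 4 tumors that stood apart, which leaves 2 tumors of this model, and 2 to 3 without BRCA1-/-p53+/- 4, normal gland 1 or normal gland 3. For MMTV-c-Myc 1 was higher and 2 lower (17.1% and 14.6%), and for MMTV-Wnt1 0 were higher and 5 lower (14.5% and 13.3%), or 3 lower without MMTV-Wnt1 1.

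**Figure D3:**
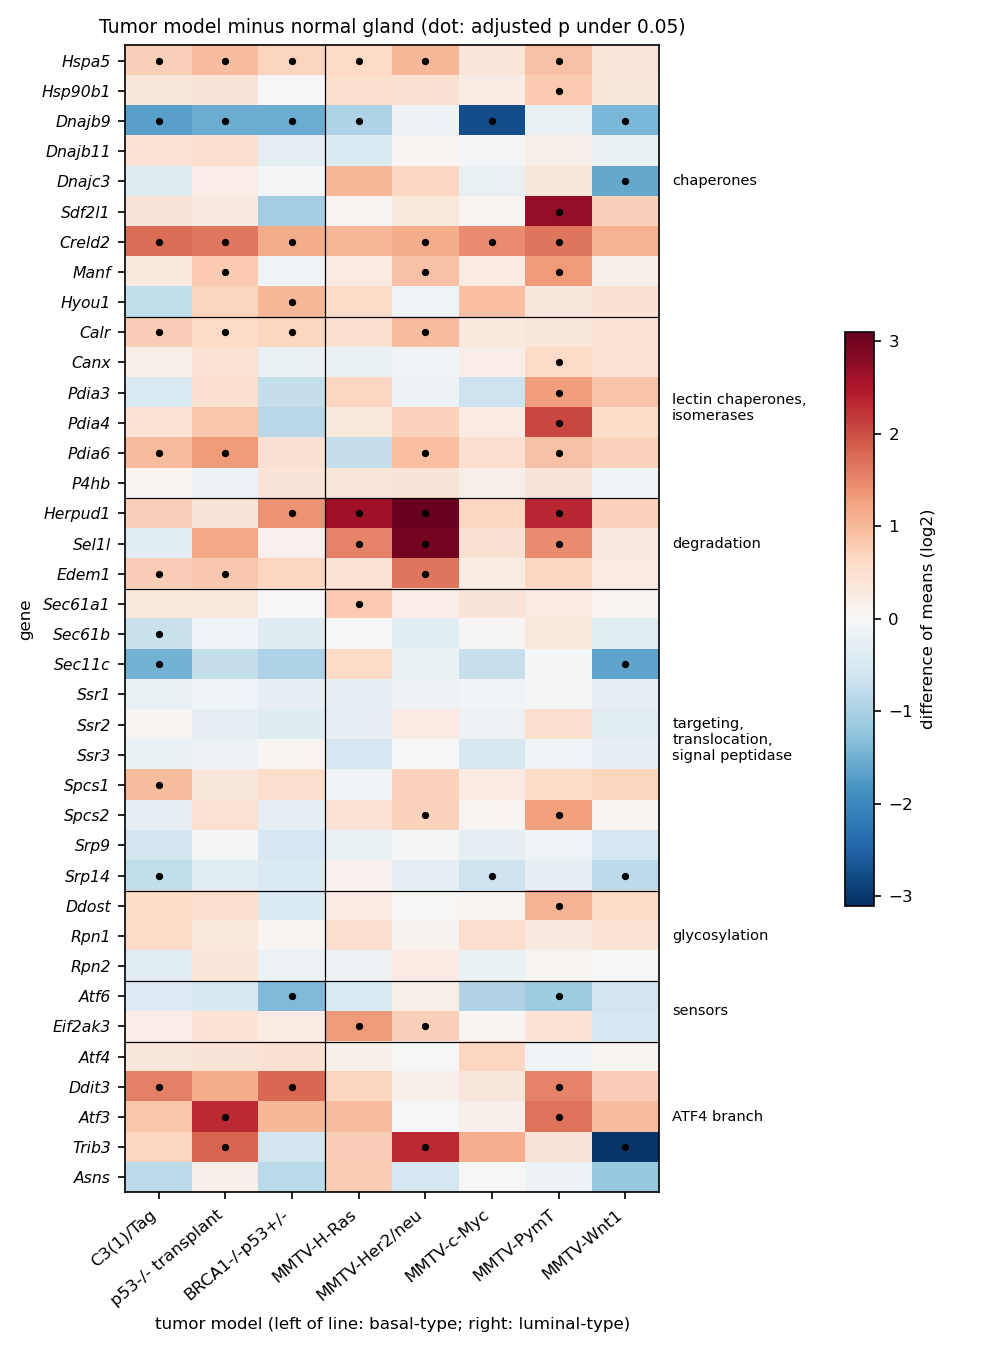
Difference between each tumor model and normal gland (color, log2) for the 38 tested members (rows, by role) in the 8 models (columns), with a dot where the adjusted p was under 0.05. Creld2 and Hspa5 are higher across most models, Dnajb9 is lower in 6, and the strongest increases are those of Herpud1 (3.07) and Sel1l (2.96) in MMTV-Her2/neu and Sdf2l1 (2.73) in MMTV-PymT.

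The models differed from one another for 23 of the 38 members, where 74.5% of all genes did. MMTV-PymT held the highest mean in 11 members, MMTV-Her2/neu in 8 and MMTV-H-Ras in 6, and the lowest mean fell to BRCA1-/-p53+/- in 12 and to MMTV-Wnt1 in 8. Members not called here were Hspa5, Calr, P4hb, Dnajb11, Creld2, Sec61a1, Ssr1, Ssr2, Ssr3, Spcs1, Srp9, Rpn1, Rpn2, Atf4 and Ddit3. Ssr1, of the translocon-associated complex, varied least (range of model means 0.26).

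MMTV-PymT had the most members higher than in the other models. Against the mean of the other 7 models 12 members were higher and 0 lower (10.9% and 6.89% of all genes). The 12 were Sdf2l1, Pdia4, Pdia3, Dnajb9, Spcs2, Herpud1, Manf, Ddost, Ssr2, Sec61b, Canx and Hsp90b1, that is, chaperones, isomerases, a degradation gene and parts of the translocation and glycosylation machinery. In these tumors 6 of 11 fibroblast and matrix genes and 6 of 10 endothelial genes were lower than in the other models, and their part was not tested. Leaving out MMTV-PymT 1, 2 or 3 gave 6, 8 and 7.

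Sdf2l1 showed this most clearly. In MMTV-PymT it ran from 8.74 over a median of 9.99 to 10.48, while in BRCA1-/-p53+/- it read 6.43, 4.27, 6.07, 6.48 and 6.44. Normal glands read 6.79, 6.54, 6.09, 7.77 and 7.87. The MMTV-PymT tumors lay above every other array but MMTV-Wnt1 2 (9.53), which lay inside their range. The difference from the other models was 2.61 (SE 0.35, 6.12-fold, limma adjusted p = 4.1e-06). Of the 46 arrays 9 lay between 6.42 and 6.48 for this gene, 1 or more in each model but MMTV-PymT, and none of the normal glands did. Between 6.4 and 6.5 there were also 3 arrays for Atf6 and 2 each for Sel1l, Atf3 and Ddit3. The reason was not tested.

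Pdia4, an isomerase of the ERp group, was 1.75 higher in MMTV-PymT (SE 0.28, adjusted p = 3.35e-05). Its tumors ran from 9.60 to 10.54, and BRCA1-/-p53+/- had the lowest values (8.08, 5.55, 6.96, 6.92 and 8.86). Pdia3, which works with calnexin and calreticulin, was 1.29 higher (SE 0.30, adjusted p = 0.00255). Spcs2, a signal peptidase subunit, was 1.10 higher (SE 0.20, adjusted p = 0.000191), and MMTV-PymT ran from 12.04 to 13.07 against 10.70 to 11.93 in normal gland. MMTV-PymT 2, the tumor with the highest salivary genes (13.01 against 5.81 to 6.90 in the other 5), read 10.48 for Sdf2l1, 10.24 for Pdia4 and 13.07 for Spcs2. Its part in the result was not tested beyond the count of 8 without it.

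MMTV-Her2/neu tumors stood highest in the 3 degradation genes by the probe sets used. Against the other models 7 members were higher and 0 lower (16.1% and 9.07% of all genes), namely Sel1l, Trib3, Herpud1, Dnajb9, Edem1, Atf6 and Calr. The probe sets of Edem1 were called in opposite directions for tumors against normal gland, and the second was not tested by itself among models. Sel1l read 11.45, 10.18, 10.11, 11.01 and 10.32 in MMTV-Her2/neu, and 7.64, 7.28, 7.68, 7.55 and 6.43 in C3(1)/Tag. Normal glands read 8.07, 8.30, 7.15, 7.79 and 6.99. The range of model means was 3.30 (adjusted p = 7.56e-05), and the MMTV-Her2/neu tumors, which were 2.28 higher than the other models (SE 0.41, limma adjusted p = 7.31e-05), overlapped only with MMTV-H-Ras 4 (11.35), p53-/- transplant 5 (10.53) and MMTV-PymT 6 (10.11).
Herpud1 was tight in this model at 11.07, 11.55, 11.07, 11.68 and 11.48, against 7.28 to 10.54 in MMTV-Wnt1. Of the 16 milk and secretory genes 9 were higher in MMTV-Her2/neu than in the other models and 7 in MMTV-PymT, 8 of 11 fibroblast and matrix genes were lower in MMTV-Her2/neu, and their part in these results was not tested.

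In MMTV-H-Ras 7 members were higher and 2 lower than in the other models (9.64% and 14.8% of all genes). Higher were Sec11c, Herpud1, Asns, Dnajc3, Eif2ak3, Srp14 and Sec61a1, and lower were Pdia6 (-1.57, SE 0.23, adjusted p = 7.71e-06) and Spcs1 (-0.66). The 2 lower became 1 after quantile normalization, with centred arrays or with a replicate block, and changed by over 1.5 times when any of 35 of the 46 arrays was left out (range 1 to 3). Sec11c, a catalytic subunit of the signal peptidase, was 1.45 higher and read 12.27, 12.29, 12.96, 11.84 and 12.68. Salivary secretory genes were higher in 10 of 11 cases in this model, and 8 of 11 fibroblast and matrix genes were lower. The MMTV-H-Ras tumor with the lowest salivary level, MMTV-H-Ras 4 (6.93 against 11.55 to 11.97), was the lowest of its group in 5 of the 7 members, with Asns at 9.87 against 11.45 to 12.27 in the other MMTV-H-Ras tumors. It lay above the median of the other models in 6 of the 7, Asns being the exception. Leaving it out kept the count at 7, but only the tumors with salivary levels of 11.55 to 11.97 then remained. With the median of the probe sets 4 were called. The part of salivary and fibroblast cells in these results was not tested.

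In the values as deposited the lowest model mean fell most often to BRCA1-/-p53+/- and MMTV-Wnt1. The order of means was not computed after other scalings, but the count of members called lower depended on the scaling. After quantile normalization or centring C3(1)/Tag had the most members called lower than in the other models. BRCA1-/-p53+/- had 0 members higher and 6 lower than the other models (6.75% and 11.9% of all genes), Sdf2l1, Pdia4, Pdia3, Ddost, Spcs2 and Hsp90b1. These 6 became 0 without the 4 tumors that stood apart, and 2 without BRCA1-/-p53+/- 1 or without BRCA1-/-p53+/- 2. For Pdia3 those tumors read 10.17 and 8.82, and the other 3 read 12.04, 12.06 and 12.36. Their adipocyte genes averaged 9.82 and 12.77, against 3.58 to 4.50 in the other 3 tumors of the model. Of 11 fibroblast and matrix genes 10, and of 10 endothelial genes 6, were higher in this model than in the others and 4 of 7 mammary epithelial genes lower. The part of these cells in the result was not tested.

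MMTV-Wnt1 had 0 higher and 3 lower (2.64% and 3.69% of all genes), Trib3, Dnajc3 and Eif2ak3. Trib3 had the widest range of all members, 5.33 between model means (adjusted p = 9.79e-07). It read 3.41, 4.14, 5.53 and 3.97 in MMTV-Wnt1, 10.49, 9.47, 9.20, 9.23 and 9.57 in MMTV-Her2/neu and 7.42 to 11.53 in the p53-/- transplant with a median of 9.20. The normal glands read 6.88, 6.89, 6.09, 8.72 and 7.87. The difference of MMTV-Wnt1 from the other models was -3.96 (SE 0.53, limma adjusted p = 7.1e-06) and from normal gland -3.03, and 3 of its 4 tumors lay below every array of the other groups. Eif2ak3, the PERK gene, was 1.01 lower in MMTV-Wnt1 (SE 0.24, adjusted p = 0.00608) and 1.08 higher in MMTV-H-Ras (SE 0.21, adjusted p = 0.000314).

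**Figure D4:**
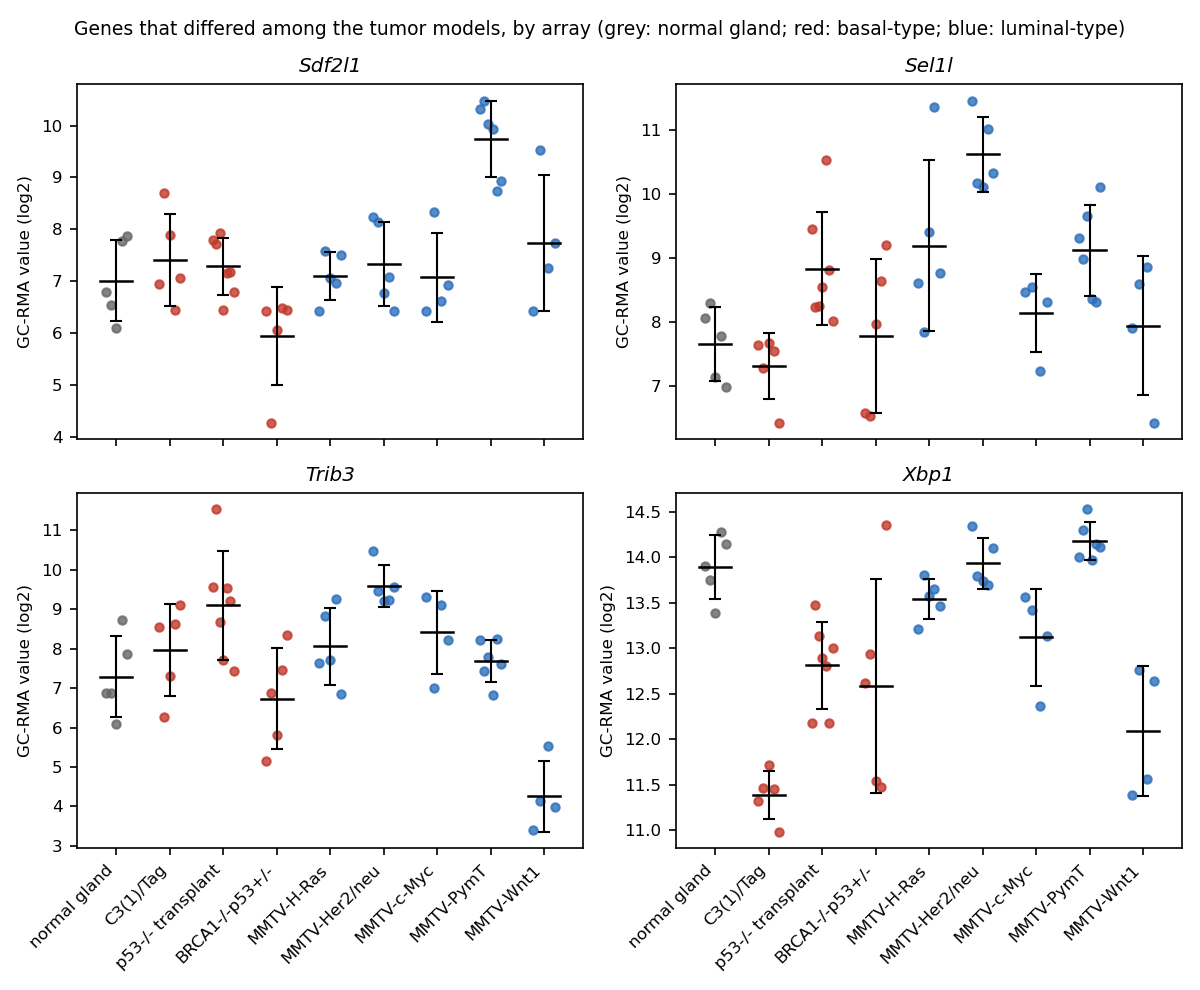
Log2 GC-RMA value (vertical axis) of Sdf2l1, Sel1l, Trib3 and Xbp1 by group along the horizontal axis, where a point is an array (46 in all) and black bars give the mean and SD. Sdf2l1 was highest in MMTV-PymT (mean 9.74), Sel1l in MMTV-Her2/neu (10.61), Trib3 was lowest in MMTV-Wnt1 (4.26), and Xbp1 was lowest in C3(1)/Tag (11.39).

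The remaining models were the p53-/- transplant, C3(1)/Tag and MMTV-c-Myc. The p53-/- transplant had 3 higher and 1 lower than the other models (10.6% and 5.69% of all genes), namely Trib3 (1.57), Atf3 and Pdia6 (0.78) against Herpud1 (-1.26). Without BRCA1-/-p53+/- 4 the 3 became 5. C3(1)/Tag had 0 higher and 4 lower (19.5% and 9.42%), Sel1l (-1.49), Hyou1 (-1.32), Spcs2 (-0.65) and Sec61b (-0.59), and 10 were lower after quantile normalization and 2 without C3(1)/Tag 4. In MMTV-c-Myc 0 were higher and 1 lower (4.76% in each direction), which was Dnajb9 (-1.67, SE 0.24, adjusted p = 9.19e-06).

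Between the classes few members differed. In basal-type tumors (n = 17) 0 of 38 members were higher and 4 lower than in luminal-type tumors (n = 24) (15.9% and 12% of all genes), and these were Herpud1, Sel1l, Sdf2l1 and Spcs2. This fit counts each tumor once, and when the tumors of a model were tied together by a random block 0 members were called. That block left few calls of any kind (0.204% of all genes higher and 0.322% lower), so the 0 says little about these members. With equal weight for each model 2 were higher, Pdia6 and Ddit3, and 8 lower (21% and 16.5% of all genes). Cell markers moved with class as well, since in basal-type tumors 9 of 11 fibroblast and matrix genes were higher, 7 of 16 milk and secretory genes lower and 7 of 11 salivary genes lower, and their part was not tested. For Herpud1 the basal-type tumors ran from 8.31 over 9.12 to 10.18 and the luminal-type tumors from 7.28 over 10.58 to 11.89, so the lowest tumor was a luminal one. The difference was -1.21 (SE 0.33, limma adjusted p = 0.00589), and the adjusted p was 0.235 with that random block. FVB arrays alone hold C3(1)/Tag as the only basal-type model, and there the Herpud1 difference was -1.25 (adjusted p = 0.102).

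Spcs2 ran from 10.49 over 11.14 to 12.25 in basal-type and from 10.82 over 11.92 to 13.07 in luminal-type tumors (-0.56, SE 0.19, adjusted p = 0.0214, but 0.287 with the block). Sdf2l1 ran from 4.27 over 6.95 to 8.69 and from 6.42 over 7.54 to 10.48 (-0.99, SE 0.37, adjusted p = 0.044). It lost the call with the block (0.356), with FVB arrays alone (-0.50, adjusted p = 0.571), without the 4 tumors that stood apart (-0.73, adjusted p = 0.146), and without any 1 of 21 arrays (-1.10 to -0.82 over all arrays left out), among them every MMTV-PymT and BRCA1-/-p53+/- tumor. Sel1l differed by -1.01 (SE 0.37, adjusted p = 0.0361, and 0.337 with the block). With FVB arrays alone Sel1l (-1.77, adjusted p = 0.0178) and Spcs2 (-0.84, adjusted p = 0.025) were called lower. Hyou1 (-1.18), Sec61b (-0.66) and Sec11c (-1.15) were also called lower in that setting. Within the classes the models were not alike, since MMTV-Wnt1 (7.95) and MMTV-c-Myc (8.14) of the luminal-type lay below the p53-/- transplant (8.83) for Sel1l. Among the other probe sets of Sel1l, that at -0.65 (mean value 2.65) was called lower, and those at -0.74 and -0.92 were not. For Dnajc3 the probe set used was not called (-0.18). Of its other probe sets, those at -0.74, -0.72 and -0.70 were called lower in basal-type tumors, and that at -0.77 was not. The 4 lower members became 7 after quantile normalization, 9 with arrays centred on the median and 2 without the 4 tumors that stood apart. They also became 2 when 1 tumor was left out, which held for C3(1)/Tag 1, 4 or 5, MMTV-Her2/neu 1 or 2 and BRCA1-/-p53+/- 1 or 2.

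For the genes named by rule in both comparisons, Hspa5 differed between classes by 0.12 (SE 0.13, adjusted p = 0.498), Hsp90b1 by -0.24 (SE 0.12, adjusted p = 0.14), Atf4 by 0.29 (SE 0.14, adjusted p = 0.133) and Ddit3 by 0.71 (SE 0.30, adjusted p = 0.067). Ddit3 was called with equal weight for each model (0.80, adjusted p = 0.0223), and without MMTV-c-Myc 1, p53-/- transplant 5, p53-/- transplant 7 or MMTV-Wnt1 3 (up to 0.81). Their values overlapped widely, with Ddit3 at 6.28 to 9.38 in basal-type and 4.47 to 9.19 in luminal-type tumors. Xbp1 was lower in basal-type tumors (-1.14, SE 0.27, adjusted p = 0.00189, but 0.123 with the model block), where it ran from 10.99 to 14.35, against 11.39 to 14.53 in luminal-type tumors. With FVB arrays alone, that is, C3(1)/Tag against the luminal-type models, the Xbp1 difference was -2.08 (adjusted p = 9.49e-05).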

How the data were processed

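Total RNA was labelled with a One Cycle kit and hybridized to Affymetrix mouse arrays, which the authors scanned with GCOS. The authors deposited log2 values normalized with GC-RMA in Partek and, by their methods, filtered out probe sets with present or marginal MAS5 calls in too few samples. The table used here held 18586 probe sets. Software versions and an array batch are not given in the sources used here.

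From these values, 1 probe set per gene was kept (the highest mean over 46 arrays), and genes with log2 over 4 in at least 3 arrays were tested, 9329 in all. Array medians ran from 6.48 to 7.48, and the number of arrays limits the precision. A model with a mean for each of 9 groups was fitted with limma 3.58.1 (R 4.3.3), with Benjamini-Hochberg adjustment over the 9329 genes. Tumors against normal gland weights the 8 models equally, each model was also set against normal gland and against the other 7 models, an F test compared the 8 models, and the classes were fitted over the 41 tumors. The classes follow the study's grouping of the models. Replicates are tumors or glands of individual mice.

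The members and lists were chosen with earlier results of these data known. Values by array and full statistics were given for Hspa5, Hsp90b1, Atf4 and Ddit3, for the called member with the largest difference in each role group, and for the 3 members with the widest range among models. Dnajb9 and some further values were added after they were seen. Of other pathway genes, Xbp1 and 2 per list were named. Alternatives were quantile normalization, centring on the array median, no filter, the median of a gene's probe sets, a replicate block, the model as a random block, equal weight for each model, FVB arrays only, leaving out each array, and leaving out 4 tumors that stand apart (chosen after seeing the data). Replicate numbers were checked for pairing, and the fit was tested on simulated data. Promoters came from RefSeq (GRCm38.p6).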

Additional observations from a re-analysis of the deposited data

Results flagged for a closer look

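In MMTV-PymT 6 Creld2 read 10.03, while the other 5 tumors of the model lay between 10.31 and 10.41. In MMTV-PymT 2 Srp14 read 12.55 against 12.16 to 12.30 in the others. In BRCA1-/-p53+/- 2 Sdf2l1 read 4.27 against 6.07 to 6.48, and in MMTV-Her2/neu 1 Trib3 read 10.49 against 9.20 to 9.57. These 4 arrays lay far from the rest of their group by Dixon's criterion. The criterion was applied to 108 groups of arrays for 12 members, and chance alone marks about 1 in 20.

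Trib3 moved in opposite directions in different models. The range of its model means was 5.33 (F test, limma adjusted p = 9.79e-07), and against normal gland it was called higher in the p53-/- transplant (1.81) and in MMTV-Her2/neu (2.30) and lower in MMTV-Wnt1 (-3.03).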

How the results depend on the processing

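Hspa5, Creld2 and Herpud1 kept their call for tumors against normal gland in every setting and with any array left out. Counts below are members called, higher or lower, where they moved by over 1.5 times. With quantile normalization, 2 were lower in p53-/- transplant, 8 higher in MMTV-H-Ras, 7 higher in MMTV-Her2/neu and 2 higher in MMTV-c-Myc against normal gland. Against the other models it gave 10 lower in C3(1)/Tag, 2 lower in p53-/- transplant, 2 higher in BRCA1-/-p53+/-, 1 lower in MMTV-H-Ras and 2 lower in MMTV-Her2/neu, and 7 lower in basal-type tumors. With arrays centred on the median, against normal gland, C3(1)/Tag had 1 higher and 10 lower, p53-/- transplant 5 and 4, MMTV-Her2/neu 6 and 1, MMTV-H-Ras 2 lower and MMTV-PymT 2 lower. Against the other models it gave 11 lower in C3(1)/Tag, 2 lower in p53-/- transplant, 2 higher in BRCA1-/-p53+/-, 1 lower in MMTV-H-Ras and 3 lower in MMTV-Her2/neu, and 9 lower in basal-type tumors. Without the filter p53-/- transplant had 2 lower than normal gland. With the median of probe sets, against normal gland, C3(1)/Tag had 4 higher, BRCA1-/-p53+/- 2 higher and 5 lower, MMTV-H-Ras 3 and 2, MMTV-Her2/neu 2 lower and MMTV-c-Myc 2 and 1. Against the other models it gave 1 higher in BRCA1-/-p53+/- and 4 higher in MMTV-H-Ras. The replicate block gave 1 higher in basal-type tumors and 1 lower against the other models in MMTV-H-Ras and in MMTV-Her2/neu. Same-numbered arrays did not deviate together (mean r = 0.0144 over 166 pairs), so the numbers do not pair the samples. In basal-type tumors, 0 were lower with the model as a random block, and 2 were higher and 8 lower with equal weight for each model. Without the 4 tumors that stand apart, against normal gland, BRCA1-/-p53+/- had 0 higher, MMTV-H-Ras 8 higher and 2 lower and MMTV-c-Myc 3 higher. Against the other models it gave 1 higher in C3(1)/Tag, 5 higher and 2 lower in p53-/- transplant, 0 lower in BRCA1-/-p53+/- and 2 lower in MMTV-c-Myc, and 2 lower in basal-type tumors. The causes were not tested.

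Leaving out 1 array gave 4 to 9 higher and 1 to 3 lower for tumors against normal gland, 0 to 1 higher and 2 to 6 lower for basal-type tumors, and 20 to 27 that differed among models. Against normal gland the ranges of higher and lower were 5 to 8 and 2 to 5 in C3(1)/Tag, 6 to 10 and 1 to 2 in p53-/- transplant, 2 to 7 and 2 to 5 in BRCA1-/-p53+/-, 2 to 10 and 1 to 2 in MMTV-H-Ras, 6 to 12 and 0 in MMTV-Her2/neu, 0 to 4 and 1 to 2 in MMTV-c-Myc, 12 to 16 and 0 to 1 in MMTV-PymT, and 0 to 1 and 3 to 6 in MMTV-Wnt1. Against the other models they were 0 and 2 to 6 in C3(1)/Tag, 2 to 5 and 1 to 2 in p53-/- transplant, 0 to 2 and 2 to 8 in BRCA1-/-p53+/-, 5 to 7 and 1 to 3 in MMTV-H-Ras, 5 to 8 and 0 to 2 in MMTV-Her2/neu, 0 and 1 to 2 in MMTV-c-Myc, 6 to 12 and 0 in MMTV-PymT, and 0 and 3 to 5 in MMTV-Wnt1. The median signal of the arrays differed between 6.48 and 7.48, and values near the background level, as for Ern1, limit what can be compared.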
